A study of Mus musculus with 17 samples.

Results

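A set of 9 heat shock protein genes was followed through sorted synovial macrophages of mice with and without circulating immune complexes (IC). They were Hspa1a, Hspa1b, Hspa8, Hsp90aa1, Hsp90ab1, Hsph1, Dnajb1, Hspd1 and Hspe1, chosen by symbol from the 22859 genes of the count table. All 9 members were found, and all 9 passed the filter on low counts that left 15272 genes to test. The 7 genes from Hspa1a to Dnajb1 encode chaperones of the cytosol and nucleus. Hspd1 and Hspe1 encode the subunits of the chaperonin of mitochondria, so a cytosolic location holds for 7 members and not for these 2.

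Macrophages were sorted from the synovium, the membrane lining the joint, as LYVE1+CX3CR1+, MHCII+CD11c- and MHCII+CD11c+ cells, which the labels call Lyve1, IAIE and CD11c. All mice, controls included, carried the Fcgr2b-KO genotype and so lacked the inhibitory receptor for immunoglobulin G, and the methods of the study give adult animals of both sexes. IC were ovalbumin bound by rabbit antibody, given into a tail vein 8 h before tissue was taken. Controls were labelled healthy, and what they received is not given in the sources used here. Each subset had 3 control and 3 IC libraries, except MHCII+CD11c+ macrophages, which had 2 IC libraries, so that 9 control and 8 IC libraries were compared. The synovium was digested with collagenase in the warmth before sorting in the protocol of the study. The labels do not say whether libraries of a group came from separate mice, or whether libraries of different subsets came from the same mice. A legend of the study on sorted subsets counts several mice for each plotted point, so a library may be a pool, but whether it covers these libraries is not stated, and p-values measure only the spread between these libraries.

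Libraries held 2301913 to 7248939 counts. At the depth of the smallest library, 11547 to 13849 genes were detected in LYVE1+CX3CR1+ IC libraries and 13816 to 17675 in the others. The sorts were visible in their own genes: the CD11c gene Itgax lay at 275 to 443 CPM (counts scaled to a common library size with edgeR's TMM factors) in MHCII+CD11c+ libraries and at up to 16.1 CPM elsewhere. All 6 macrophage markers were present in every group, with a summed level of 7370 to 13980 CPM. The 6 neutrophil markers summed to 66.5 to 251 CPM in MHCII+CD11c+ controls and to 0.550 to 1.76 CPM after IC, with 4 of the 6 at no more than 3 counts in every IC library of that subset. The 4 MHC class II markers summed to 16320 to 17610 CPM in MHCII+CD11c- controls and to 11130 to 11570 CPM after IC, while the 5 markers of the LYVE1+CX3CR1+ sort went from 988 to 1721 CPM to 1817 to 3293 CPM there. In LYVE1+CX3CR1+ libraries these 5 markers summed to 3552 to 4385 CPM in controls and to 5560 to 6516 CPM after IC, and the MHC class II markers to 102 to 156 against 19.8 to 49.2 CPM. None of these ranges overlapped between treatments. The part of these shifts in the values below was not tested.

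Heat shock proteins keep other proteins folded. In the cytosol, J-domain proteins such as Dnajb1 hand unfolded clients to Hsp70 proteins, exchange factors such as Hsph1 reset Hsp70, and Hsp90 finishes many kinases and steroid receptors with the help of co-chaperones. The transcription factor HSF1 induces many of these genes under heat, oxidants or misfolded protein by binding inverted repeats of the letters GAA in their promoters. Hspa8, Hsp90ab1 and the mitochondrial pair are also made in resting cells, whereas Hspa1a, Hspa1b and Dnajb1 are classical stress-inducible genes.

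Promoter windows were read from RefSeq on GRCm38.p6, from 250 bases before to 50 after each start site. The table held 9 windows of 6 members (Hspa1a, Hspa1b, Hsph1, Dnajb1, Hspd1 and Hspe1). The 200 bases before the start are shown for Hspa1a and Hspa1b, which rose together after IC, and for Dnajb1, which was not called with them. For Hspe1, whose promoter lies in the annotated untranslated exon of the divergent Hspd1, only 30 bases around its matches are shown. Capitals mark the motifs GAANNTTC and TTCNNGAA, which read the same on both strands.
Hspa1a, chr17:34972157-34972356, minus strand: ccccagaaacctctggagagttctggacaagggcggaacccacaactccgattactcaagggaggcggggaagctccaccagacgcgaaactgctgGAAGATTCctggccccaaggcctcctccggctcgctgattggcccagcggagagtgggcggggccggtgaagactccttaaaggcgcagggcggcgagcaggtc
Hspa1b, chr17:34959239-34959438, minus strand: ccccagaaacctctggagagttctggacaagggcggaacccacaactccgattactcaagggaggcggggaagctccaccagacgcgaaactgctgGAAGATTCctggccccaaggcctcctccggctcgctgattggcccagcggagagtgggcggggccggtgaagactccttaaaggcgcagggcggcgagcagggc
Dnajb1, chr8:83607975-83608174, plus strand: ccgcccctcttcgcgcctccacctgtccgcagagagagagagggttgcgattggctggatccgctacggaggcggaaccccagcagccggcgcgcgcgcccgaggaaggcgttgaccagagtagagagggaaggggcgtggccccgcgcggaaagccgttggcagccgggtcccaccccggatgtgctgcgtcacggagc
Hspe1, chr1:55088053-55088082, plus strand: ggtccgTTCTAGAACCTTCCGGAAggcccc

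The Hspa1a and Hspa1b stretches differed at 1 base, and their whole windows at 4. Each held 1 match, from 104 to 97 bases before the start. Hspe1 held overlapping matches between 89 and 72 bases before its start, which together contain a longer motif, GAANNTTC followed by NNGAA, on both strands, and 285 bases of its window are also in a window of the divergent Hspd1. Hsph1 had TTCNNGAA at 33 to 26 bases before its more upstream start and the longer motif at 37 to 49 bases after it. No match was found in either Dnajb1 window, of which the more downstream lies wholly within the annotated gene. Only exact matches to the fixed letters were counted. Of the 9 windows, some of which overlap, 6 held an 8-letter match and 4 the longer motif, and of all 32851 promoter windows 15.1% and 0.603% did. These matches fell in 5 and 3 of the 6 members, which are not separate sites. Hspa1a and Hspa1b have near-identical windows with the same match, and the Hspd1 and Hspe1 matches are the same site read from either strand. Of other motifs searched on both strands, TATAAA was in no member window and in 13.6% of all, and CCAAT was in windows of Hspa1a, Hspa1b, Hsph1, Dnajb1 and Hspd1 and in 37.4% of all. Hsph1, Hspd1 and Hspe1, which edgeR did not call after IC, held the longer motif, while Hspa1a and Hspa1b held only the 8-letter match. A match is only a match of letters, and binding was not measured. A link between matches and the change after IC was not tested.

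In controls the level of these genes spanned from among the most abundant transcripts to far lower ranks. Counted per kilobase of exon, Hspa8, the constitutive Hsp70, was the most abundant member in every group, at 648 ± 26.0 CPM per kb in MHCII+CD11c- controls (SD, n = 3), where it ranked 38 of the 14926 tested genes with a known length. Hsp90ab1, the constitutive Hsp90, came next with 564 ± 53.8. The libraries of this pair did not overlap there, but they did in the other 2 control groups. Hsp90aa1, Hspa1b and Hspa1a formed a middle tier with 195 ± 39.7, 195 ± 43.0 and 181 ± 34.4 CPM per kb and overlapping libraries in the same group. Dnajb1 followed with 96.7 ± 17.4 CPM per kb, and Hspd1 (27.6 ± 5.86), Hspe1 (20.5 ± 9.60) and Hsph1 (16.7 ± 2.56) were lowest, again with overlap. This order depends on the exon lengths: in plain CPM, Hsph1 (121) was above Hspd1 (72.9) and Hspe1 (30.1) there. The stress-inducible Hspa1a and Hspa1b ranked 193 and 174 in these controls.

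After IC, the Hsp70 and Hsp90 genes were called higher on average over the subsets, and Dnajb1, Hsph1, Hspd1 and Hspe1 were not called. In value, the average log2 fold change of Hsph1 (0.49) was no lower than that of Hsp90aa1 (0.45) or Hsp90ab1 (0.44). On average over the 3 subsets, 5 of 9 members were called higher and none lower, by edgeR's quasi-likelihood test with a Benjamini-Hochberg adjusted p under 0.05, the rule for every call below, and 3.35% of all tested genes were called in this comparison. The 5 were Hspa1a, Hspa1b, Hspa8, Hsp90aa1 and Hsp90ab1. The median log2 fold change of the members was 0.45, beside -0.07 for all genes. For Hspa1a, Hspa1b and Hspa8, all 8 IC libraries lay above all 9 control libraries, which was the case for 0.124% of tested genes, and no member lay below in all (0.0786% of genes). In these bulk libraries, more transcript per cell and more cells that express a gene cannot be told apart. The members summed took 0.643% to 0.882% of all counts in control libraries and 0.965% to 1.46% in IC libraries, without overlap.

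**Figure D1:**
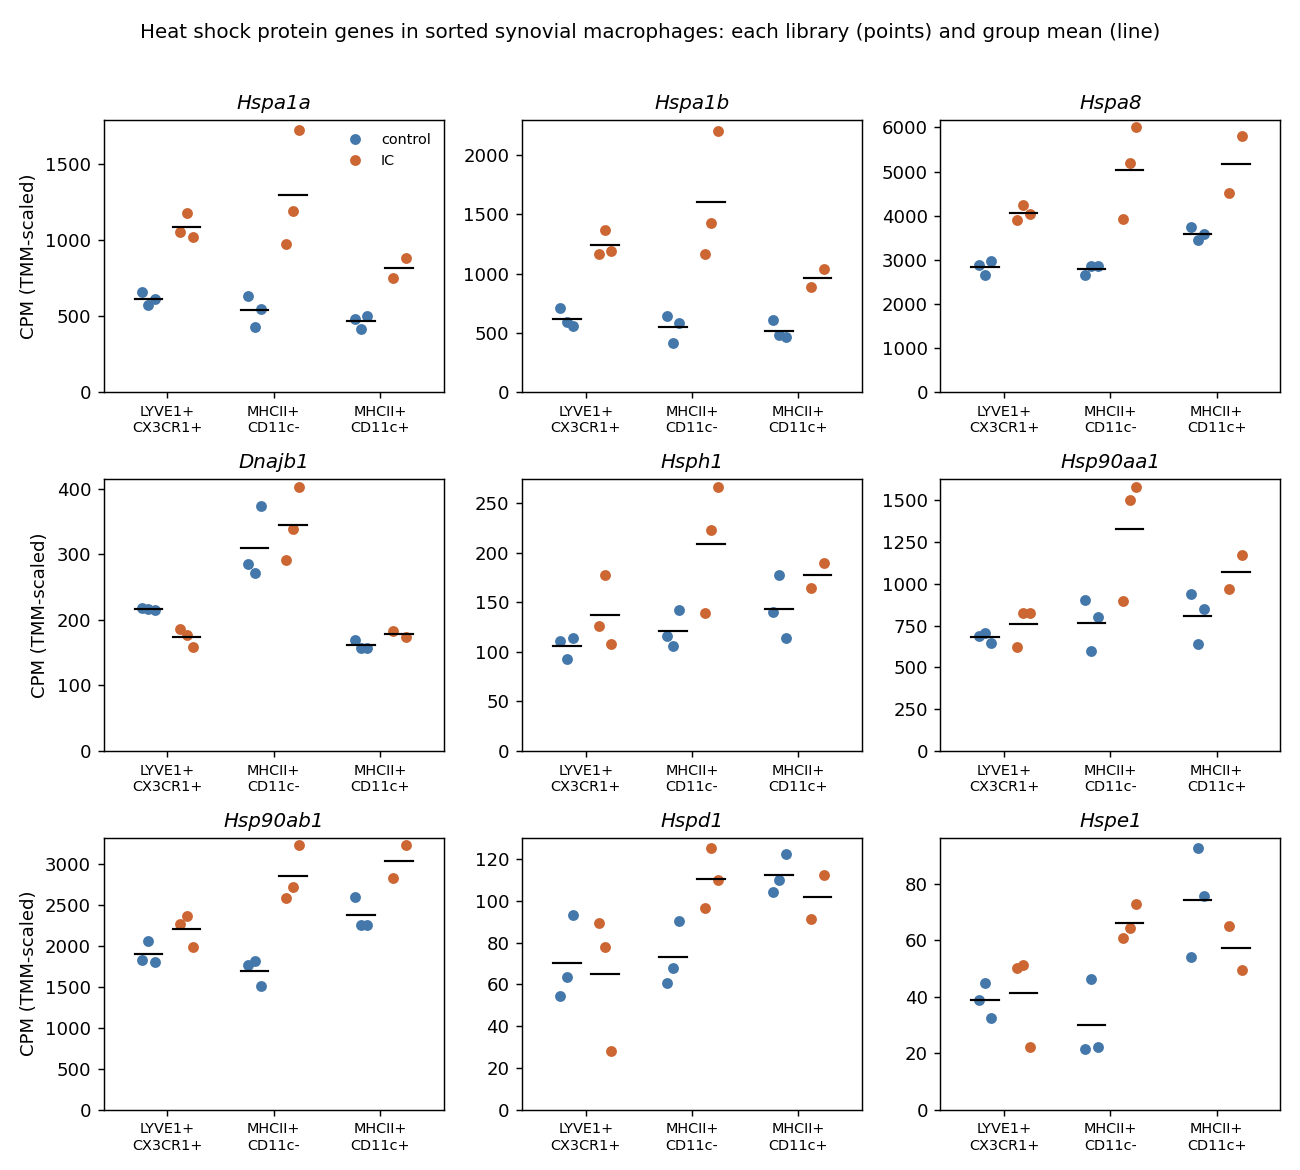
Level of each member in CPM (vertical axes, each from 0) in control (blue) and IC (orange) libraries of the 3 subsets, with 1 point per library and a line at the group mean. Hspa1a, Hspa1b and Hspa8 are higher in every IC library than in every control library, while Dnajb1 spans 157 to 374 CPM in controls and 158 to 403 CPM after IC.

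Hspa1a and Hspa1b encode the inducible Hsp70. They lie on chromosome 17 (34969190 to 34972156 and 34956436 to 34959238, minus strand), and their coding sequences are 99.4% identical, so reads could have been split between them or lost. In LYVE1+CX3CR1+ macrophages, Hspa1b was at 710, 596 and 555 CPM in controls and at 1168, 1369 and 1191 CPM after IC, and Hspa1a at 661, 571 and 613 against 1051, 1177 and 1017 CPM. No library of either gene overlapped between treatments, nor did those of Hspa8, and 4.95% of genes had all IC libraries above all controls here. These 2 genes were the members called in this subset, where 0.963% of genes were called. Hspa1a rose by a log2 fold change of 0.81 ± 0.18 (SE; adjusted p = 0.0307) and Hspa1b by 1.003 ± 0.20 (2.00-fold, adjusted p = 0.0188), while the median gene was at -0.14. The Hspa1a call ended without any single one of the 6 LYVE1+CX3CR1+ libraries (adjusted p = 0.0546 to 0.122), and that of Hspa1b without control replicate 2 or 3 (adjusted p = 0.0745 and 0.0887). Both calls ended with surrogate variables in the model (adjusted p = 0.137 for Hspa1a and 0.0542 for Hspa1b). With the counts of both genes summed, the change was 0.91 ± 0.19 (adjusted p = 0.0194).

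The rise was steeper in value in MHCII+CD11c- macrophages. Hspa1b was at 645, 413 and 585 CPM in controls and at 1167, 1429 and 2205 CPM after IC, a 2.92-fold change (log2 1.55 ± 0.21, adjusted p = 0.000379). Hspa1a went from 632, 429 and 549 CPM to 973, 1192 and 1721 CPM (log2 1.27 ± 0.19, adjusted p = 0.000899). Replicate 3 of the IC libraries was the highest for both, and both calls held in all 15 alternatives, with adjusted p of no more than 0.0352. In this subset 4 members were called, all higher, against 0.701% of genes. All IC libraries lay above all controls for 6 members, Hspa1a, Hspa1b, Hspa8, Hsp90ab1, Hspd1 and Hspe1 (8.72% of genes), and below for none (8.48%).

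In MHCII+CD11c+ macrophages, Hspa1b was at 613, 479 and 462 CPM in controls and at 885 and 1037 CPM in the IC libraries, and Hspa1a at 483, 416 and 499 against 747 and 881 CPM. All IC libraries lay above all controls for these genes and for Hspa8, Dnajb1, Hsp90aa1 and Hsp90ab1, 6 members in all, and below for none. With only 2 IC libraries, 14.1% of genes lay above and 9.02% below. The log2 fold changes, 0.89 ± 0.22 and 0.81 ± 0.20, had adjusted p-values of 0.146 and 0.147. No member was called by edgeR in this subset, nor by DESeq2 or limma-voom, and 0.216% of genes were called by edgeR, while 4 members had an unadjusted p under 0.05. Without the filter on low counts, edgeR called Hspa1a (adjusted p = 0.0368) and Hspa1b (adjusted p = 0.0263). Each was called in only this 1 of 14 alternatives.

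The ratio of Hspa1b to Hspa1a counts in LYVE1+CX3CR1+ macrophages was 0.905 to 1.075 without IC and 1.112 to 1.172 with it, and it was 0.962 to 1.066 against 1.199 to 1.281 in MHCII+CD11c- macrophages, without overlap in either subset. In MHCII+CD11c+ macrophages it was 0.925 to 1.27 in controls, which spans the 1.18 of both IC libraries. These ratios were not tested. Across the 17 libraries, log2 CPM of the 2 genes had a Pearson r of 0.98, and of 0.91 after group means were taken out. Whether reads from their common sequence were counted for either gene is not given in the sources used here, and 38.1% of the stretches of 150 bases in the Hspa1a transcript occur unchanged in that of Hspa1b.

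Hspa8 encodes the constitutive partner, whose coding sequence is 74.1% identical to that of Hspa1a and shares no stretch of 150 bases with it. It lies on chromosome 9 (40800984 to 40810087, plus strand). In MHCII+CD11c- macrophages it was at 2659, 2853 and 2851 CPM in controls and 3918, 5194 and 5999 CPM after IC, and it rose by 0.85 ± 0.15 on the log2 scale (adjusted p = 0.00413). The call ended without IC replicate 3, the highest library (0.71, adjusted p = 0.0600). In LYVE1+CX3CR1+ macrophages it was at 2871, 2651 and 2976 CPM against 3900, 4230 and 4029 CPM, again apart, but the log2 fold change of 0.52 ± 0.15 had an adjusted p of 0.0907 in edgeR and of 0.0193 in DESeq2. In MHCII+CD11c+ macrophages it was at 3733, 3458 and 3579 CPM against 4523 and 5797 CPM (0.52 ± 0.16, adjusted p = 0.425). The average over the subsets was 0.63 ± 0.09 (adjusted p = 0.000151).

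Both Hsp90 genes rose on average over the subsets. Hsp90ab1, on chromosome 17 (45567775 to 45573271, minus strand), was at 1762, 1808 and 1508 CPM in MHCII+CD11c- controls and at 2585, 2721 and 3232 CPM after IC, without overlap, and rose by 0.75 ± 0.14 on the log2 scale (adjusted p = 0.00872). That call ended without control replicate 3 (adjusted p = 0.0990), without IC replicate 3 (adjusted p = 0.0984), with surrogate variables (adjusted p = 0.0645), and in a fit on these 6 libraries only (adjusted p = 0.106). In that last fit the Hspa8 call ended too (adjusted p = 0.0960). In LYVE1+CX3CR1+ macrophages its log2 fold change was 0.22 ± 0.14 (adjusted p = 0.530), with controls at 1806 to 2057 CPM and IC libraries at 1990 to 2366 CPM. In MHCII+CD11c+ macrophages the change was 0.35 ± 0.16 (adjusted p = 0.877). The average, 0.44 ± 0.08, was called (adjusted p = 0.00351) and stayed so in all 26 alternatives.

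Hsp90aa1, the inducible Hsp90 on chromosome 12 (110690605 to 110702728, minus strand), was at 905, 599 and 802 CPM in MHCII+CD11c- controls and at 896, 1504 and 1580 CPM after IC, with overlap (0.79 ± 0.20, adjusted p = 0.0753). Without IC replicate 1, the low one, the change passed (1.002, adjusted p = 0.0117). It also passed with surrogate variables (0.87, adjusted p = 0.0456) and with no filter on low counts (0.80, adjusted p = 0.0173). These were 3 of 15 alternatives, and without IC replicate 3 the adjusted p was 0.444. Its average change, 0.45 ± 0.12, was just past the threshold (adjusted p = 0.0384). The call ended in 16 of 26 alternatives, among them the omission of any 1 of 13 libraries (adjusted p = 0.0529 to 0.159, the highest without MHCII+CD11c+ IC replicate 2). The 4 libraries whose omission kept it were MHCII+CD11c- control replicate 1, MHCII+CD11c+ control replicate 1, LYVE1+CX3CR1+ IC replicate 1 and MHCII+CD11c- IC replicate 1.

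Of the partners that work with Hsp70, edgeR called neither after IC. Hsph1, the exchange factor on chromosome 5 (149614287 to 149636376, minus strand), ran from 92.7 to 177 CPM over all controls with a median of 114, and from 108 to 266 CPM after IC with a median of 171. Its average log2 fold change was 0.49 ± 0.14 (adjusted p = 0.0516), which passed the threshold in 7 of 26 alternatives, DESeq2 among them (adjusted p = 0.0368). Its 2 highest libraries were from MHCII+CD11c- macrophages after IC, a group at 139, 222 and 266 CPM against 116, 106 and 142 CPM in controls (0.78 ± 0.23, adjusted p = 0.141). Without IC replicate 1, the low one, this change was 1.01 and passed (adjusted p = 0.0303), as it did with surrogate variables (0.88, adjusted p = 0.0415). These were 2 of 15 alternatives, and without IC replicate 3 the adjusted p was 0.649.

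Dnajb1, the J-domain gene on chromosome 8 (83608193 to 83612653, plus strand), stayed near its control level on average. In LYVE1+CX3CR1+ macrophages it was at 218, 217 and 215 CPM in controls and at 186, 177 and 158 CPM after IC, so that the IC libraries were the lower ones, as for 16.7% of genes (-0.32 ± 0.17, adjusted p = 0.405). In MHCII+CD11c- macrophages it was at 285, 271 and 374 CPM against 291, 339 and 403 CPM (0.15 ± 0.17, adjusted p = 0.880), and in MHCII+CD11c+ macrophages at 170, 158 and 157 against 184 and 174 CPM (0.15 ± 0.19, adjusted p = 1). The average was -0.01, with a 95% confidence interval from -0.21 to 0.20. That of Hspa1a was 0.96, with an interval from 0.74 to 1.19, and these intervals do not overlap.

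**Figure D2:**
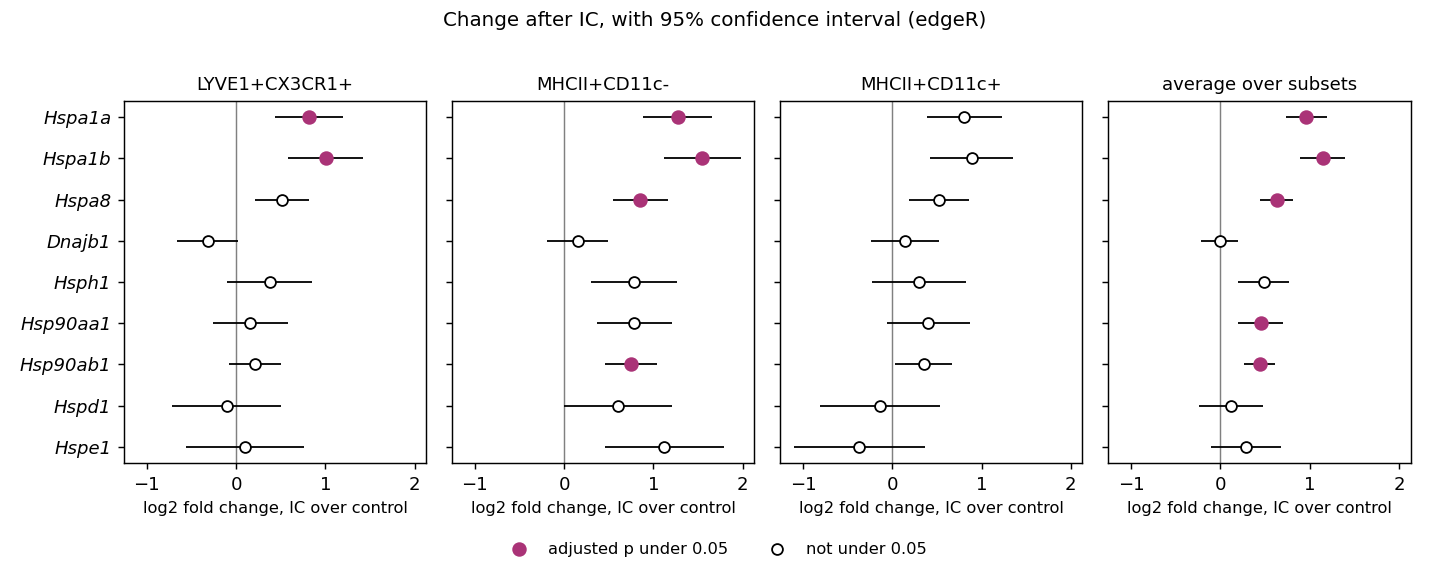
Log2 fold change of IC over control libraries (horizontal axis) for the 9 members in each subset and on average, with 95% confidence intervals from edgeR; filled points have an adjusted p under 0.05. Hspa1a and Hspa1b stand farthest to the right, at 0.96 and 1.15 on average, and Dnajb1 stands at -0.01.

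**Figure D3:**
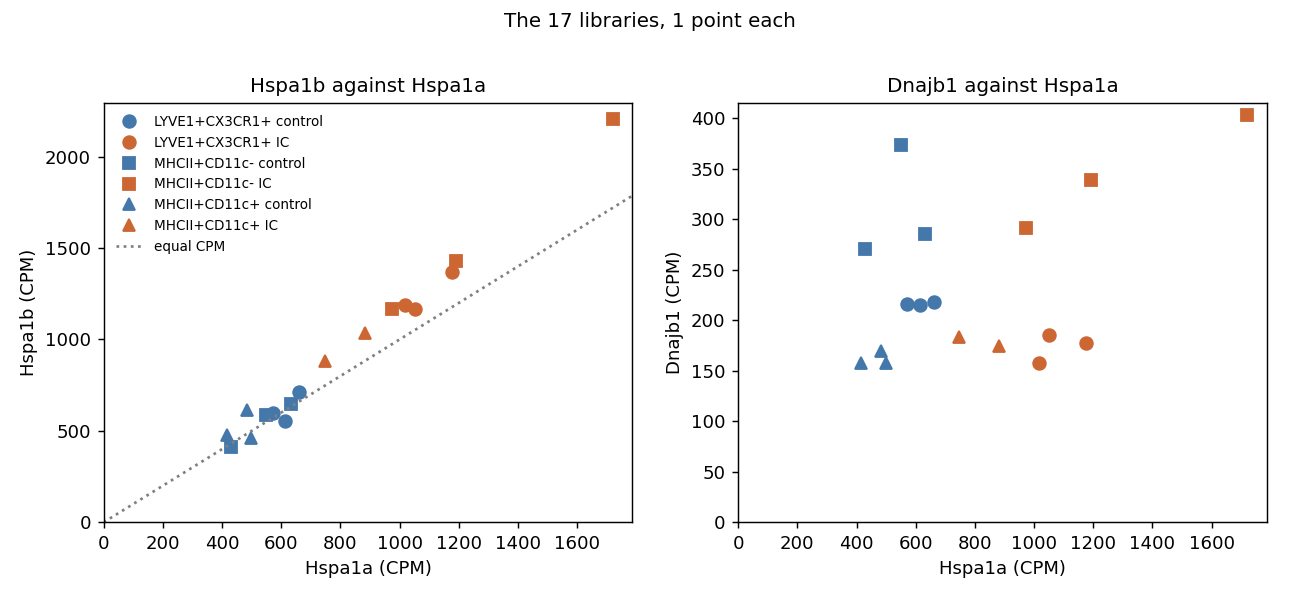
CPM of Hspa1b (left) and Dnajb1 (right) against CPM of Hspa1a in the 17 libraries, with shapes for the subsets and colours for the treatment. Hspa1b follows Hspa1a (r = 0.98 on the log2 scale), whereas for Dnajb1 the MHCII+CD11c- libraries stand apart, at 271 to 403 CPM. Those of LYVE1+CX3CR1+ (158 to 218 CPM) and MHCII+CD11c+ macrophages (157 to 184 CPM) overlap.

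Hspd1 and Hspe1 form the mitochondrial chaperonin and its lid, and they start back to back on chromosome 1 (55077835 to 55088243, minus strand, and 55088132 to 55091307, plus strand). Reads in their common first bases cannot be assigned without strand. Neither was called by edgeR after IC in any subset or on average, and DESeq2 called Hspe1 in MHCII+CD11c- macrophages (1.09, adjusted p = 0.0416). In MHCII+CD11c- macrophages Hspe1 was at 21.5, 46.5 and 22.4 CPM in controls and at 60.8, 64.5 and 72.9 CPM after IC, without overlap, but the log2 fold change of 1.12 ± 0.32 had an adjusted p of 0.124. Without control replicate 2, the high one, the change was 1.59 and passed (adjusted p = 0.0213). This fit and DESeq2 were the 2 of 15 alternatives that called it, and without control replicate 3 the adjusted p was 0.497. Hspd1 was at 60.6 to 90.3 CPM against 96.7 to 125 CPM there (0.60 ± 0.29, adjusted p = 0.501). In MHCII+CD11c+ macrophages the pair went the other way in value, with Hspe1 at 54.2 to 92.9 CPM in controls and at 65.2 and 49.7 CPM after IC (-0.37 ± 0.35, adjusted p = 1). The lowest Hspd1 value of all, 28.2 CPM, was in an LYVE1+CX3CR1+ IC library, whose group ran up to 89.2 CPM. Processed copies named Hspd1-ps3 and Hspe1-ps5 had up to 34 and 10 counts in a library.

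A difference of the IC response between subsets was tested as an interaction. With edgeR, DESeq2 and limma-voom alike, 0 of 9 members differed in response. The share of genes called by edgeR was 0.0262% for LYVE1+CX3CR1+ against MHCII+CD11c- cells, 0.0327% for LYVE1+CX3CR1+ against MHCII+CD11c+ cells and 0.00% for the 2 MHCII+ subsets. At an unadjusted p under 0.05 the counts were 3, 0 and 2. The signed log2 fold change of all 9 members was higher in value in MHCII+CD11c- macrophages than in either other subset, and these contrasts share the MHCII+CD11c- libraries. For Dnajb1 the difference from MHCII+CD11c+ macrophages was -0.006 and changed sign in 6 of 20 alternatives. For Hspa1b the response was 0.54 lower in LYVE1+CX3CR1+ macrophages, as a log2 difference of -0.54 with a 95% confidence interval from -1.14 to 0.05. For Hspe1 it was -1.49 in MHCII+CD11c+ against MHCII+CD11c- macrophages (-2.48 to -0.50), with an adjusted p of 1. The intervals are wide, and the steeper values in MHCII+CD11c- macrophages are not shown to differ from the other subsets.

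In controls, Dnajb1, Hsp90ab1 and Hspe1 were called between subsets. Between MHCII+CD11c+ and MHCII+CD11c- controls 3 of 9 members were called, against 8.66% of genes. At an unadjusted p under 0.05 there were 5 members, beside 3264 of the 15272 genes. All MHCII+CD11c+ controls were above for 4 members (12.6% of genes) and below for 1 (14.9%). Dnajb1 was lower in MHCII+CD11c+ macrophages, at 170, 158 and 157 CPM against 285, 271 and 374 CPM (-0.94 ± 0.17, adjusted p = 0.000623), and this call held without any single library. Hsp90ab1 was higher, at 2597, 2259 and 2258 against 1508 to 1808 CPM (0.49 ± 0.14, adjusted p = 0.0300). Hspe1 was also higher, at 54.2, 92.9 and 75.6 against 21.5 to 46.5 CPM (1.29 ± 0.32, adjusted p = 0.0114). The Hsp90ab1 call ended without MHCII+CD11c+ control replicate 1 or 3 or MHCII+CD11c- control replicate 3 (adjusted p = 0.0600 to 0.140), and the Hspe1 call without MHCII+CD11c- control replicate 1 or 3 (adjusted p = 0.0706 and 0.0703). The Hsp90ab1 call also ended in a fit on only the groups compared (0.49, adjusted p = 0.128). With 5 surrogate variables in the model none of the 3 was called.

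In LYVE1+CX3CR1+ controls, with the CD11c+ sort as the base, Hspe1 was the 1 member called, against 15.2% of genes, at 39.1, 44.9 and 32.7 CPM against 54.2 to 92.9 CPM (-0.94 ± 0.32, adjusted p = 0.0478). Its call ended without any single one of 5 of the 6 libraries, all but MHCII+CD11c+ control replicate 1 (adjusted p of up to 0.168). At an unadjusted p under 0.05 there were 6 members, beside 4065 of the 15272 genes. All LYVE1+CX3CR1+ controls were below for 5 members (16.9% of genes) and above for 2 (20.8%). When controls of the LYVE1+CX3CR1+ sort were set against MHCII+CD11c- ones, edgeR and limma-voom called 0 members and DESeq2 called 1, against 1.56% of genes called by edgeR, and 1 member had an unadjusted p under 0.05. That member was Dnajb1, which was lower in every LYVE1+CX3CR1+ library, as were 10.3% of genes, while no member was higher in every library (11.3%) (-0.52 ± 0.17, adjusted p = 0.155 in edgeR and 0.0401 in DESeq2). Hspa1a and Hspa1b were at 416 to 661 and 413 to 710 CPM over all 9 controls, and no contrast of control subsets called them.

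**Figure D4:**
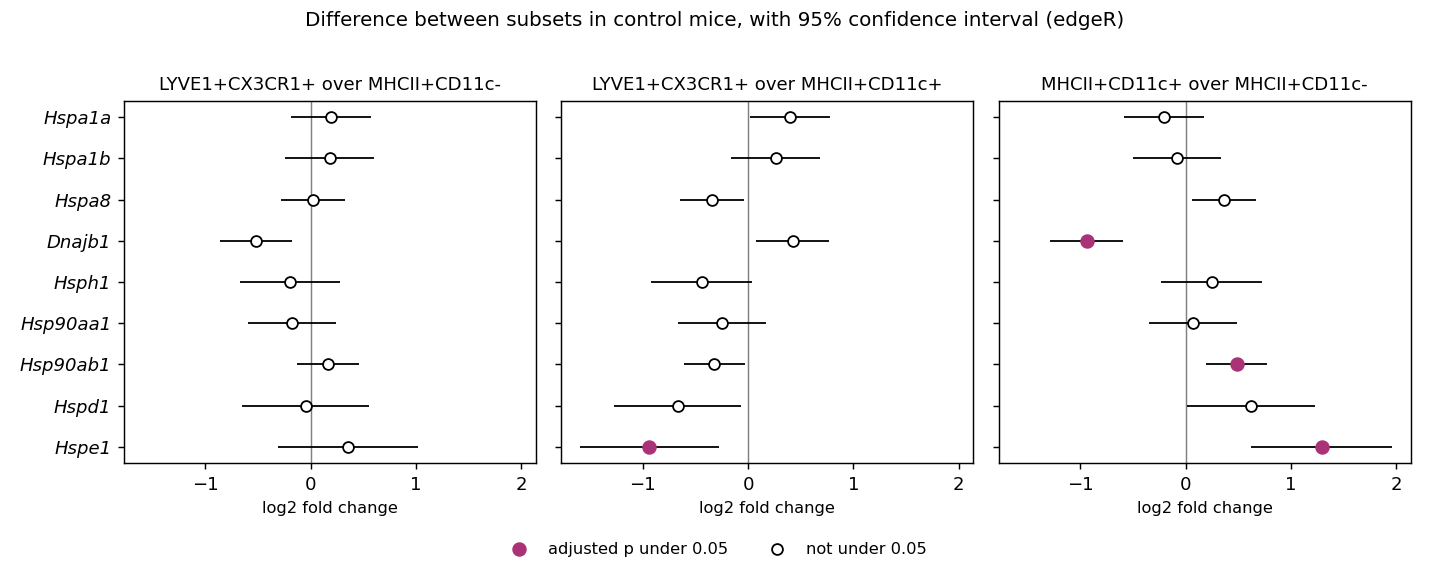
Log2 fold change between pairs of subsets in control mice (horizontal axis) for the 9 members, with 95% confidence intervals from edgeR; filled points have an adjusted p under 0.05. With MHCII+CD11c- macrophages as the base, the CD11c+ sort has lower Dnajb1 (-0.94) and higher Hspe1 (1.29).

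Other genes of the pathway were read from fixed lists. Of the 5 regulators of the heat shock response none was called after IC in any subset or on average. Hsf1, the gene of the inducing factor, was at 30.5 to 34.5 CPM in LYVE1+CX3CR1+ controls and 23.6 to 29.9 CPM after IC, and its average log2 fold change was -0.19 ± 0.16 (adjusted p = 0.617). Bag3, an HSF1 target that exchanges the nucleotide of Hsp70, was at 0.095 ± 0.121 on average (adjusted p = 0.765). Of 14 Hsp90 co-chaperones 1 was called after IC in each subset and on average. It was Fkbp5, an immunophilin of the Hsp90 and steroid receptor complex and a known glucocorticoid target, which rose by 3.61 on the log2 scale in MHCII+CD11c- macrophages (adjusted p = 6.32e-05), by 3.40 where LYVE1+CX3CR1+ cells were sorted (adjusted p = 8.48e-05) and by 2.32 in the CD11c+ sort (adjusted p = 0.00965). The median of the co-chaperones on average was 0.28, against -0.07 for all genes.

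Among the 8 subunits of TRiC, the cytosolic chaperonin that folds actin and tubulin, 2 were called higher in MHCII+CD11c- macrophages after IC. Of all genes 0.701% were called there. Cct3 went from 48.2 to 75.1 CPM in controls to 108 to 129 CPM (1.04 ± 0.20, adjusted p = 0.0120), and Cct2 rose by 0.93 ± 0.20 (adjusted p = 0.0196). On average over the subsets the same 2 were called, against 3.35% of genes. Cct2 was at 0.49 ± 0.12 (adjusted p = 0.0177) and Cct3 at 0.49 ± 0.12 (adjusted p = 0.0225). None was called after IC in the other subsets. In LYVE1+CX3CR1+ macrophages all 8 were positive in value, with a median of 0.30 beside -0.14 for all genes. A difference of their response between subsets is not given here. Among controls, 6 of 8 were called higher in MHCII+CD11c+ macrophages when these were set against the CD11c- sort, where 8.66% of genes were called. It was also 6 of 8 when they were set against LYVE1+CX3CR1+ cells, where 15.2% of genes were called. Cct5, for instance, was at 325 to 369 CPM in MHCII+CD11c+ and 139 to 147 CPM in LYVE1+CX3CR1+ controls (adjusted p = 1.03e-05). Of 16 other J-domain genes only Dnaja2, a further Hsp70 partner, was called on average after IC (0.49 ± 0.10, adjusted p = 0.00757), and of the 2 stress ubiquitin genes Ubb was (0.35 ± 0.08, adjusted p = 0.0158).

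No call after IC was made among 16 tested genes of other Hsp70 and Hsp110 proteins and exchange factors, 7 small heat shock proteins, 9 other mitochondrial chaperones and proteases, or 12 chaperones of the endoplasmic reticulum, in any subset or on average. Their medians on average were 0.11, -0.26, 0.21 and 0.17. In the list of metallothioneins and oxidative stress genes, Hmox1, which encodes the heme-degrading heme oxygenase, was called higher in both MHCII+ subsets. It rose by 0.86 ± 0.17 in MHCII+CD11c- (adjusted p = 0.0153) and by 0.93 ± 0.19 in MHCII+CD11c+ macrophages (adjusted p = 0.0352). The metallothionein gene Mt1 was called in MHCII+CD11c- macrophages (1.46 ± 0.32, adjusted p = 0.0482). Both were also called on average over the subsets, Hmox1 at 0.58 ± 0.10 (adjusted p = 0.00185) and Mt1 at 0.90 ± 0.19 (adjusted p = 0.0146).

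Immediate early genes, which digestion of tissue is also known to induce, were at a high level in every group. The 21 genes of the list summed to 24080 to 26580 CPM in LYVE1+CX3CR1+ controls and 24950 to 30140 CPM after IC, to 25950 to 27720 against 24190 to 28800 CPM in MHCII+CD11c- macrophages and to 20080 to 24540 against 22890 to 25870 CPM in MHCII+CD11c+ macrophages, so treatments overlapped in each subset. Their median log2 fold change on average was -0.03. Egr2 and Egr3 fell on average, by 0.93 and 0.94 on the log2 scale (adjusted p = 0.00105 and 0.00351), and Dusp1 was among 2 genes called higher (0.42 ± 0.09, adjusted p = 0.00796). In controls Jun, with 906 to 1521 CPM in MHCII+CD11c+ and 2272 to 3597 CPM in MHCII+CD11c- macrophages, differed in the same direction as Dnajb1 (-1.36 ± 0.18, adjusted p = 2.35e-05). The list as a whole was mixed in that contrast. Of the 21 genes 4 were called, all lower, against 8.66% of all genes, and 9 were higher in value (median -0.14, beside -0.03 for all genes). The part of digestion in the level of the members was not tested.

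The members varied together to unequal degrees. Over the 17 libraries, Hspa8 was close to Hsp90ab1 (r = 0.90) and Hsph1 (r = 0.82), whereas Dnajb1 had an r of 0.30 or less with the Hsp70 genes. With group means taken out, r between Dnajb1 and Hspa1a was 0.60, so within a group libraries high in one tended to be high in the other. Among 8530 genes with a mean of at least 10 CPM, those most alike to the mean z score of the 7 cytosolic members were Ccl9 (r = 0.89), Jdp2, Pnpt1, Oas1a and Cers2 (r = 0.84). With group means taken out they were Cd164 (r = 0.87), Kptn, Serp1, Arl6ip1 and Hivep2 (r = 0.85). These are descriptions over 17 libraries that share depth, subset and treatment.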

How the data were processed

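Raw read counts per gene were used as the authors deposited them, with no normalization. In the submitters' processing notes and the study's methods, stranded low-input total RNA libraries were trimmed with Trim Galore, aligned to mm10 with HISAT2 and counted with featureCounts. Versions, annotation, strand setting and treatment of multi-mapping reads are not given in the sources used here, which bears most on Hspa1a and Hspa1b. The authors used DESeq2 and sva.

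Libraries were grouped by their labels. The joint table and the separate tables held the same counts for 17 of 17 libraries, and 1 further column, with no counts, matched no label and was not used. Replicates differed beyond sampling noise (lowest chi-square per degree of freedom 6.77). Libraries held 2301913 to 7248939 counts, and every member had at least 54 in each.

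edgeR 4.0.16 in R 4.3.3 was used with filterByExpr (minimum count 10), TMM factors, a mean for each of 6 groups, robust quasi-likelihood fits (11 residual degrees of freedom) and Benjamini-Hochberg adjustment over 15272 genes. Levels are CPM from TMM-scaled library sizes, correlations use log2 CPM with a prior count of 2, and lengths are exon unions of GENCODE M21 on GRCm38. Alternatives were DESeq2 1.42.0, limma-voom 3.58.1, RLE factors, no filter, only the groups compared, 5 surrogate variables (sva 3.50.0), equal depth, Hspa1a and Hspa1b summed, a replicate block and leaving out each library. An average over the MHCII+ subsets alone was added after seeing the data. The scripts were tested on simulated data.

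Members and lists were chosen with earlier results of these data known. The rule named all 9 members, Fkbp5, Hsf1 and Bag3, and up to 3 called genes per list and contrast with the smallest p, of which some are given. Genes alike in pattern were the 5 with the highest Pearson r.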

Additional observations from a re-analysis of the deposited data

How the results depend on the processing

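Of the values of single members, 966 kept their call or lack of one under the alternatives, 46 lost a call and 23 gained one, and no called change turned its direction; a change of sign in a value called in neither fit was counted as kept. For LYVE1+CX3CR1+ macrophages after IC the count of 2 called members went to 0 with surrogate variables, to 1 with Hspa1a and Hspa1b summed (which leaves 8 features), and to 0 to 1 when each library was left out. Hspa8 gained a call there with DESeq2, in the fit on only the groups compared and with no filter on low counts (adjusted p = 0.0193, 0.0405 and 0.0265). In MHCII+CD11c- macrophages the count of 4 went to 2 in a fit on only the groups compared, and to between 2 and 6 when each library was left out, with 2 without IC replicate 3. Calls gained there included Hspe1 with DESeq2 and Hsp90aa1 with no filter on low counts. For the average over the subsets, Hsph1 gained a call in 7 alternatives and Hsp90aa1 lost its call in 16. In MHCII+CD11c+ macrophages the count of 0 went to 2 with no filter on low counts. Between LYVE1+CX3CR1+ and MHCII+CD11c- controls 0 went to 1 with DESeq2. Between LYVE1+CX3CR1+ and MHCII+CD11c+ controls 1 went to 2 with DESeq2, limma-voom and the fit on only the groups compared, and to 0 to 1 when each library was left out. Between MHCII+CD11c+ and MHCII+CD11c- controls 3 went to 0 with surrogate variables and to 1 to 3 when each library was left out, with 1 without MHCII+CD11c- control replicate 3. The cause was not tested. The number of all genes called moved more: in place of 147, 107, 33 and 511 after IC (LYVE1+CX3CR1+, then the CD11c- and CD11c+ sorts, then the average), DESeq2 called 432, 295, 73 and 918, and the fit on only the groups compared called 63, 71 and 0 in the subsets; surrogate variables gave 425, 184 and 910 for the first, second and last, and equal depth gave 89 for the first. For LYVE1+CX3CR1+ against MHCII+CD11c- controls, 238 became 497 with DESeq2, 494 in the fit on only those groups, 155 with surrogate variables and 376 with the replicate block, and for the CD11c+ against the CD11c- sort in controls 1323 became 550 with surrogate variables. Interactions (LYVE1+CX3CR1+ against the CD11c- sort, against the CD11c+ sort, and between these sorts) called 4, 5 and 0 genes with edgeR, 36, 42 and 2 with DESeq2, and 10 and 35 in the first and second with the replicate block. Leaving out 1 library gave 43 to 170, 29 to 173, 0 to 104 and 198 to 673 genes after IC, in the order above, 96 to 411 for LYVE1+CX3CR1+ against MHCII+CD11c- controls, 785 to 1450 for the CD11c+ against the CD11c- sort, and 1 to 7, 3 to 56 and 0 to 21 for the interactions. The average over the MHCII+ subsets, fitted without the LYVE1+CX3CR1+ libraries, called 4 members in place of 5, with Hsp90aa1 lost (0.57, adjusted p = 0.139). Labels gave groups the same replicate numbers but no shared animal. Within a treatment, deviations of same-numbered libraries correlated at 0.001 to 0.286 (median 0.0415), and those of other numbers at -0.15 to 0.067 (median -0.0285). Between treatments, same-numbered libraries correlated at -0.153 to 0.082. Whether same-numbered libraries of a treatment share mice was not tested. If they do, the subsets are not independent, which bears on the average over subsets. The main fit took no number as a pair. Fits with a replicate block, across treatments for the IC changes and within a treatment otherwise, gave the same counts of called members. These were 2, 4, 0 and 5 after IC, 0, 1 and 3 between controls and 0 for each interaction. Members had at least 54 counts in every library.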
